A study of Homo sapiens with 12 samples.

Results

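Mitochondrial ribosomal proteins are the nuclear-encoded proteins of the ribosome that works inside mitochondria. Here they were taken as the probe sets whose only gene in the array annotation has a symbol starting with MRPL (large subunit) or MRPS (small subunit) and a digit. They were selected by symbol alone, but the family was taken up with its eIF4E against IgG difference known, so that difference is given as a description of the family. The array held 64 such probe sets of 51 genes, out of 19064 probe sets with 1 gene and 11963 genes in all. The large subunit had 35 probe sets of 31 genes and the small subunit 29 probe sets of 20 genes. One further probe set lists a relative of MRPS31 together with another gene and was left out.

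The study collected messengers bound to eIF4E, the protein that recognises the cap at the 5′ end of messenger RNA, from a human line of triple-negative breast cancer, MDA-MB-231. RNA was precipitated with an antibody against eIF4E or with IgG, which measures what sticks without a specific antibody, and each precipitate was read on 1 Affymetrix array. The 4 groups of 3 arrays were eIF4E precipitates of irradiated cells, eIF4E precipitates of untreated cells, IgG precipitates of irradiated cells and IgG precipitates of untreated cells. Irradiation was 2 Gy of X-rays, 6 h before lysis. The series' design text calls the replicates biological, all cells are of 1 line grown in serum-containing medium, and no total RNA was analysed here, so more of a messenger in the cell and a larger bound share of it cannot be told apart.

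Mitochondrial ribosomes carry ribosomal RNA made in the mitochondrion and translate the few messengers of mitochondrial DNA, which encode core subunits of the respiratory chain. All of their proteins are encoded in the nucleus, translated from capped messengers on cytosolic ribosomes and imported. Some descend from proteins of bacterial ribosomes, and others were added in the mitochondrial lineage. Messengers of cytosolic ribosomal proteins, by contrast, are the textbook carriers of a terminal oligopyrimidine tract, a C followed by further C or T letters at the very start of the messenger.

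Signals are MAS5 values on a linear scale, scaled by the authors to a trimmed mean of about 500.2 on each array, so a difference is relative to the other genes of an array. Both of the following checks moved exactly with the antibody. The signal of the Alu repeat control probe set was 13482 to 18476 on eIF4E arrays and 36876 to 53246 on IgG arrays. Actin's 3′ probe set over its 5′ probe set was 1.33 to 1.53 on eIF4E arrays and 2.96 to 5.38 on IgG arrays. Their part in the differences below was not tested. Of the marker lists, genes typical of this line summed to 46233 to 57491 on eIF4E arrays and 78193 to 106662 on IgG arrays. Luminal breast markers summed to 128 to 198 on eIF4E arrays and 119 to 229 on IgG arrays. Markers of liver, blood, brain and muscle summed to 144 to 269 on eIF4E arrays and 86.7 to 195 on IgG arrays. Median coefficients of variation of the tested members within a group were 6.37% in irradiated and 7.14% in untreated eIF4E precipitates, and 14.8% in irradiated and 12.4% in untreated IgG precipitates.

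The annotated starts of 8 genes are shown first, because the start of a messenger is what eIF4E meets. The sequences are from RefSeq on GRCh38.p14, 45 bases before the annotated start in lower case and the first 15 transcribed bases in capitals, written 5′ to 3′ on the gene's strand. Members with large differences (MRPL34, MRPS17 and MRPS12), the 3 members whose start begins with C and 4 further C or T letters, and 2 cytosolic ribosomal protein genes with the same kind of start are listed from the highest to the lowest eIF4E minus IgG difference. The choice of MRPS33 and of this order was made after the values were seen.
MRPL34, chr19:17292528-17292587, plus strand: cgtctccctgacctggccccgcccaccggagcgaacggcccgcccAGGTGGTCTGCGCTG
MRPS17, chr7:55951832-55951891, plus strand: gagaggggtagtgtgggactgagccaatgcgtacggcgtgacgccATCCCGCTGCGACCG
MRPS12, chr19:38930899-38930958, plus strand: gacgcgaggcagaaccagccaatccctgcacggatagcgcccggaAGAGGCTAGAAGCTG
MRPS33, chr7:141014938-141014997, minus strand: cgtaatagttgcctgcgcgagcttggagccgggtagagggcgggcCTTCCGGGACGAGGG
RPL36, chr19:5690250-5690309, plus strand: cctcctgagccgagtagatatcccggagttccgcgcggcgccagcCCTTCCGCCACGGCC
MRPL44, chr2:223957418-223957477, plus strand: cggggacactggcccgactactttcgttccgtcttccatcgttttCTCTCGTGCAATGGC
MRPS27, chr5:72320226-72320285, minus strand: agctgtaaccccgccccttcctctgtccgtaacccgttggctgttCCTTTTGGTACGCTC
RPLP2, chr11:809922-809981, plus strand: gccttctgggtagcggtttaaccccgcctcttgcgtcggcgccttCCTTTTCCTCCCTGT

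Nearly all mitochondrial ribosomal protein messengers that could be tested gave more signal in eIF4E than in IgG precipitates. Of 51 genes, 48 passed the filter, set at the 40th percentile of all genes. It was applied to the mean of log2(signal + 16), and its cut equals a signal of 57.4. With both treatments averaged, 28 of 29 large subunit genes were higher in eIF4E precipitates and 0 were lower, with a median log2 difference of 1.18, or 2.26-fold. Of 19 small subunit genes, 18 were higher and 1, MRPS27, was lower, with a median of 0.97, or 1.96-fold. Across all 7178 genes tested, 32.5% were higher and 38.2% lower, and the median was -0.07. The test was limma's moderated test on log2(signal + 16), with Benjamini-Hochberg adjustment over all 7178 genes at 0.05.

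The size of the difference varied widely within each subunit. Differences of at least 1 on the log2 scale were reached by 18 of 29 large and 9 of 19 small subunit genes, against 12.3% of all genes tested. All 6 eIF4E arrays lay above all 6 IgG arrays for 25 large and 15 small subunit genes, a separation that 23.1% of all genes tested showed. MRPS27 had the opposite separation, which 26.7% of all genes tested showed. The median signal over the tested members was 1961 to 2166 on the 6 eIF4E arrays and 784 to 979 on the 6 IgG arrays, so this median alone separated the antibodies.

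**Figure D1:**
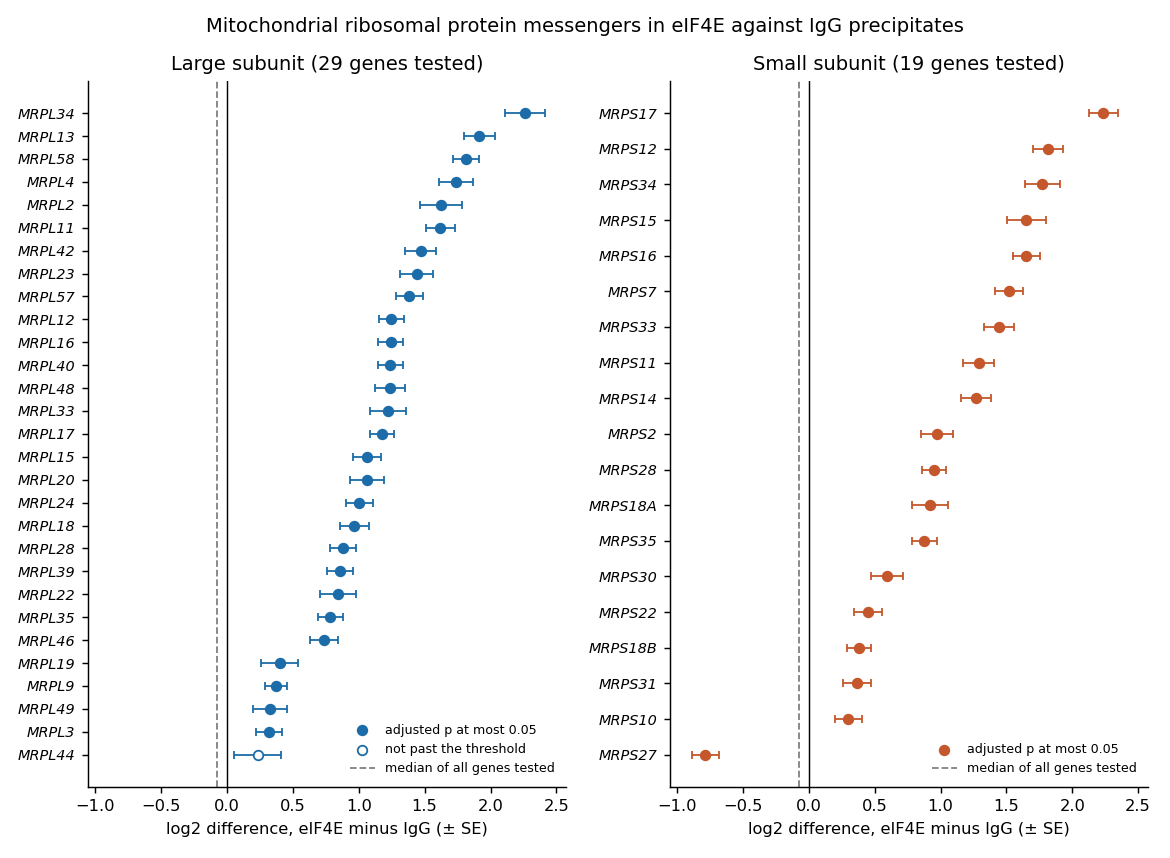
Log2 difference of eIF4E minus IgG precipitates (x axis, mean of both treatments, point and SE of the fit) for each tested large subunit gene (left, 29 genes) and small subunit gene (right, 19 genes); filled points are past the adjusted p threshold and the dashed line is the median of all 7178 genes tested. Every point except that of MRPS27 lies right of 0, MRPL44 is the 1 open point, and the highest are MRPL34 at 2.26 and MRPS17 at 2.24.

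In the large subunit the largest difference was that of MRPL34, a homologue of a small bacterial ribosomal protein. MRPL34 had signals of 2701, 2346 and 1749 in irradiated and 2687, 2435 and 2137 in untreated eIF4E precipitates, against 419, 584 and 435 in irradiated and 662, 367 and 418 in untreated IgG precipitates. The lowest eIF4E array was well above the highest IgG array, and the log2 difference was 2.26 ± 0.15 (SE, adjusted p = 2.22e-09 by limma). MRPL13, also of bacterial type, had signals of 4341, 5055 and 4731 in irradiated and 4959, 4646 and 4417 in untreated eIF4E precipitates, against 1014, 1503 and 1280 in irradiated and 981, 1268 and 1425 in untreated IgG precipitates. Its log2 difference was 1.92 ± 0.12, again with no overlap between the antibodies.

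MRPL58 (also called ICT1) is a peptidyl-tRNA hydrolase that frees stalled mitochondrial ribosomes and is built into the large subunit. MRPL58 had signals of 2241, 2258 and 1995 in irradiated and 2326, 2029 and 2109 in untreated eIF4E precipitates, against 532, 694 and 669 in irradiated and 624, 543 and 570 in untreated IgG precipitates. The log2 difference of MRPL58 was 1.81 ± 0.10 with an adjusted p of 3.88e-10 in limma's fit, the smallest of the large subunit. MRPL4, MRPL2 and MRPL11, which have bacterial counterparts bound to the large ribosomal RNA, followed with log2 differences of 1.74 ± 0.13, 1.63 ± 0.16 and 1.62 ± 0.11. MRPL12, the stalk protein at which translation factors dock, had signals of 1791 to 2254 in eIF4E and 724 to 937 in IgG precipitates and a log2 difference of 1.25 ± 0.10.

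At the low end of the large subunit stood MRPL44, a protein with a ribonuclease III-like fold near the exit of the peptide tunnel. MRPL44 had signals of 133, 159 and 198 in irradiated and 157, 192 and 161 in untreated eIF4E precipitates, against 147, 178 and 107 in irradiated and 99.6, 134 and 187 in untreated IgG precipitates. These arrays overlapped throughout, and the log2 difference of 0.23 ± 0.18 did not pass the threshold (adjusted p = 0.25 by limma). It was measured by 1 dim probe set of the kind that may match other messengers. Among the tested members, MRPL35 and MRPS22 were also read only by 1 probe set of this kind, a brighter one. MRPL3, a bacterial-type protein near the catalytic centre, was bright in both precipitates, with signals of 4504, 4192 and 3867 in irradiated and 4341, 3907 and 3607 in untreated eIF4E precipitates, against 2745, 3548 and 3377 in irradiated and 2901, 3459 and 3621 in untreated IgG precipitates. The log2 difference of MRPL3 passed at 0.32 ± 0.10, although 1 IgG array lay within the range of the eIF4E arrays.

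The other large subunit genes with small differences all passed the threshold as well. MRPL49, added in the mitochondrial lineage, had a log2 difference of 0.33 ± 0.13 with overlapping arrays, and its adjusted p of 0.033 was over 0.05, at up to 0.082, without any 1 of 7 arrays (irradiated eIF4E replicate 2, untreated eIF4E replicates 2 and 3, irradiated IgG replicates 1 and 3, untreated IgG replicates 2 and 3). MRPL9 and MRPL19, both of bacterial type, had log2 differences of 0.37 ± 0.08 and 0.40 ± 0.14, and MRPL46, a mitochondrial addition, 0.73 ± 0.11. The small difference of MRPL9 is that of its brightest probe set. Its second probe set, at 909 to 1225 in eIF4E and 442 to 631 in IgG precipitates, gave 1.01 ± 0.11 by itself. With replicate 1 of every group left out, MRPL3 and MRPL19 were no longer past the threshold, at log2 differences of 0.15 and 0.23. The 17 large subunit genes between these ends ran without a gap from MRPL35 at 0.78 to MRPL42 at 1.47.

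In the small subunit the largest difference was that of MRPS17, a homologue of a bacterial protein that helps fold the small ribosomal RNA. MRPS17 had signals of 5621, 4312 and 4427 in irradiated and 5193, 4008 and 4161 in untreated eIF4E precipitates, against 780, 980 and 1084 in irradiated and 1055, 919 and 979 in untreated IgG precipitates. No IgG array came near an eIF4E array, and the log2 difference was 2.24 ± 0.11 (adjusted p = 2.55e-10 by limma, the smallest of the family). MRPS12, the homologue of the bacterial decoding-centre protein at which streptomycin resistance arises, had signals of 4116, 3841 and 3878 in irradiated and 4405, 3843 and 4035 in untreated eIF4E precipitates, against 1006, 1147 and 1021 in irradiated and 1634, 971 and 1097 in untreated IgG precipitates. The log2 difference of MRPS12 was 1.82 ± 0.12, with 1 untreated IgG array above the other 5.

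MRPS16, a bacterial-type protein in which inherited mutations impair mitochondrial translation, had signals of 2372, 2619 and 2396 in irradiated and 2575, 2183 and 2357 in untreated eIF4E precipitates, against 683, 753 and 733 in irradiated and 961, 696 and 747 in untreated IgG precipitates. Its log2 difference was 1.65 ± 0.10 without overlap. MRPS34, a mitochondrial addition to the small subunit, had a log2 difference of 1.77 ± 0.13, and the bacterial-type MRPS15 and MRPS7 had differences of 1.65 ± 0.15 and 1.52 ± 0.11. The 7 small subunit genes between both ends ran from MRPS35 at 0.88 to MRPS33 at 1.44.

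MRPS27, a pentatricopeptide repeat protein of the small subunit, was the only tested member that was lower in eIF4E precipitates. MRPS27 had signals of 1057, 818 and 836 in irradiated and 864, 959 and 718 in untreated eIF4E precipitates, against 1408, 1569 and 1521 in irradiated and 1530, 1534 and 1503 in untreated IgG precipitates. All 6 eIF4E arrays were below all 6 IgG arrays, and the log2 difference was -0.79 ± 0.10 (adjusted p = 3.76e-06 by limma). It kept its sign and its call in all 25 alternative analyses, between -0.89 and -0.68 on the log2 scale.

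Below MRPS35, the small subunit genes other than MRPS27 had small positive differences that passed the threshold. MRPS10, of bacterial type and among the brightest members, had signals of 5788 to 6555 in eIF4E and 3644 to 5688 in IgG precipitates and a log2 difference of 0.30 ± 0.10. MRPS22, a mitochondrial addition in which mutations cause a respiratory chain disorder, had signals of 1650 to 2399 in eIF4E and 1231 to 1666 in IgG precipitates, which touched, and a difference of 0.45 ± 0.10. MRPS31 was at 0.36 ± 0.11, also with overlap. MRPS10 was no longer past the threshold after quantile normalization (0.22) or with replicate 1 of every group left out (0.18).

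**Figure D2:**
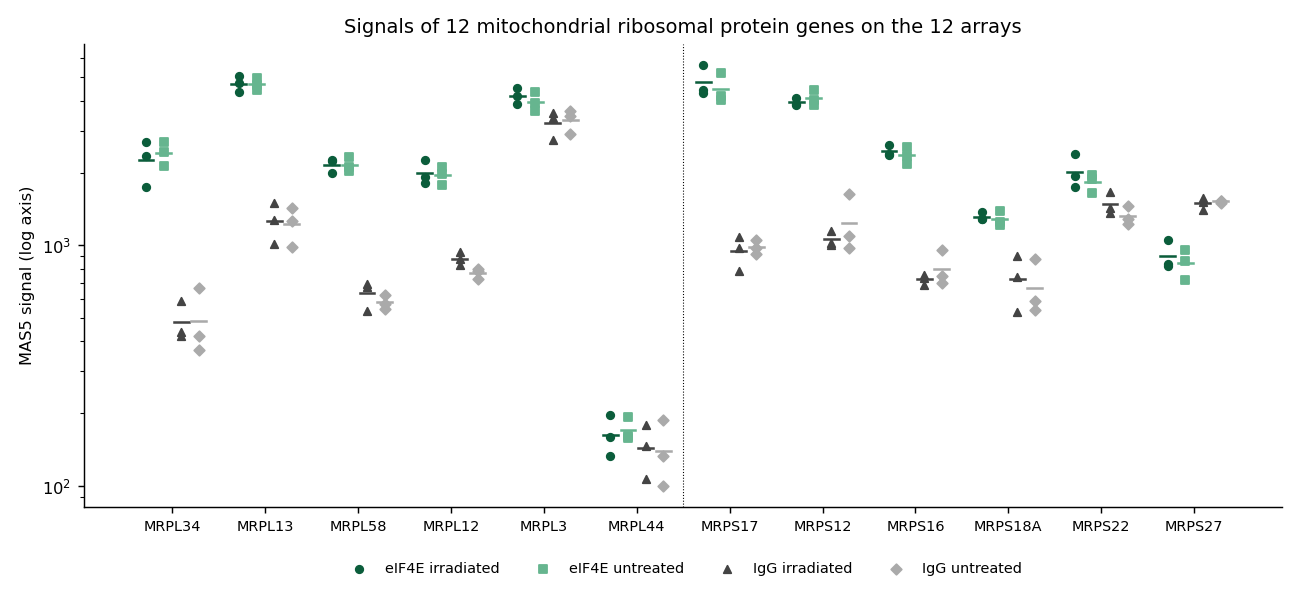
MAS5 signal (y axis, log scale) of 12 member genes on the 12 arrays, 6 of the large subunit left of the dotted line and 6 of the small subunit right of it; points are arrays, short lines are means of 3, and each gene shows eIF4E irradiated, eIF4E untreated, IgG irradiated and IgG untreated from left to right. The antibodies separate for MRPL34 (1749 to 2701 against 367 to 662) and MRPS17, overlap for MRPL44, and change places for MRPS27 (718 to 1057 in eIF4E against 1408 to 1569 in IgG precipitates).

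The 3 genes of the MRPS18 group descend from 1 bacterial protein of the small subunit. MRPS18A had signals of 1373, 1284 and 1282 in irradiated and 1391, 1255 and 1215 in untreated eIF4E precipitates, against 905, 527 and 738 in irradiated and 876, 589 and 537 in untreated IgG precipitates, and a log2 difference of 0.92 ± 0.14. MRPS18B had signals of 1690, 1546 and 1571 in irradiated and 1912, 1848 and 1791 in untreated eIF4E precipitates, against 1327, 1099 and 1416 in irradiated and 1425, 1373 and 1293 in untreated IgG precipitates, and a smaller difference of 0.38 ± 0.09. MRPS18C lay below the filter, at 11.4 to 59.0 in eIF4E and 3.81 to 49.3 in IgG precipitates, and was not tested. The difference between MRPS18A and MRPS18B was not tested, and a second probe set of each put them closer, at 0.70 for MRPS18A and 0.80 for MRPS18B.

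Symbol and place in the ribosome do not always go together. The proteins of MRPS18A and MRPS30 sit in the large subunit of the human mitochondrial ribosome despite their names. Counted by place, 30 of 31 large subunit genes were called higher and 0 lower (median 1.06), and 16 of 17 small subunit genes were called higher and 1 lower (median 1.27). Of all genes tested, 32.5% were higher and 38.2% lower. The medians of the subunits by name, 1.18 and 0.97, stood the other way round, so neither subunit was set above the other by these data.

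Bacterial-type and mitochondria-specific members were both mostly higher in eIF4E precipitates, where 32.5% of all genes tested were higher and 38.2% lower. Of bacterial-type members, 20 of 20 large and 12 of 12 small subunit genes tested were higher, with median log2 differences of 1.12 and 1.28. Of mitochondria-specific members, 8 of 9 large subunit genes were called higher and 0 lower (median 1.24), and 6 of 7 small subunit genes were called higher and 1 lower (median 0.59). The lower median of the last list rests on few genes, among them MRPS27, MRPS31 and MRPS22, while MRPS34 and MRPS33 of the same list were at 1.77 and 1.44. The lists were made by symbol, so MRPS18A is in the small bacterial-type list and MRPS30 in the last one.

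Several genes were read by more than 1 probe set, which gives a second measurement of the same messenger. Of the 64 probe sets, 58 were above the filter, and fitted by themselves 53 were higher in eIF4E precipitates, 2 were lower and 3 did not pass, where 31.5% of all 10566 probe sets in that fit were higher and 38.3% lower. The 2 lower ones were that of MRPS27 and a second probe set of MRPS30, whose mean signals in eIF4E precipitates were under the filter. The brighter MRPS30 probe set had signals of 678, 948 and 809 in irradiated and 966, 1014 and 879 in untreated eIF4E precipitates, against 699, 701 and 513 in irradiated and 465, 632 and 482 in untreated IgG precipitates. It was higher by 0.59 ± 0.12 on the log2 scale, with 1 eIF4E array inside the IgG range.

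The dimmer MRPS30 probe set had signals of 91.4, 36.2 and 34.6 in irradiated and 53.6, 48.8 and 63.4 in untreated eIF4E precipitates, against 158, 148 and 197 in irradiated and 139, 125 and 196 in untreated IgG precipitates. All its eIF4E arrays were below all its IgG arrays. Its mean signals in eIF4E precipitates, 54.0 in irradiated and 55.3 in untreated cells, were under the filter of 57.4, so it was tested only because of its IgG arrays and no size is given for its difference. The MRPS30 probe sets thus lay on opposite sides, 1 of them dim. Which transcript each probe set matches was not tested.

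MRPS14 and MRPL57 also had probe sets that differed by over 1 on the log2 scale. The bright MRPS14 probe set had signals of 2558 to 2908 in eIF4E and 930 to 1440 in IgG precipitates, a difference of 1.27. The dim one had 49.2 to 69.9 in irradiated and 88.7 to 106 in untreated eIF4E precipitates. Its IgG signals were 46.9 to 81.7 in irradiated and 98.1 to 124 in untreated cells. The antibody difference of this dim probe set, -0.15, did not pass. Its irradiated arrays lay below its untreated arrays, but fitted by itself it passed in no irradiation comparison. MRPL57, a small protein of the large subunit, was higher by 1.38 with its bright probe set, at 6376 to 7367 in eIF4E and 2205 to 3142 in IgG precipitates. Its dimmer probe sets gave 0.62, which passed, and 0.13, which did not. The 3 MRPS12 probe sets above the filter were all higher, by 1.82, 1.30 and 1.07, and both MRPS31 probe sets gave close values of 0.36 and 0.34.

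**Figure D3:**
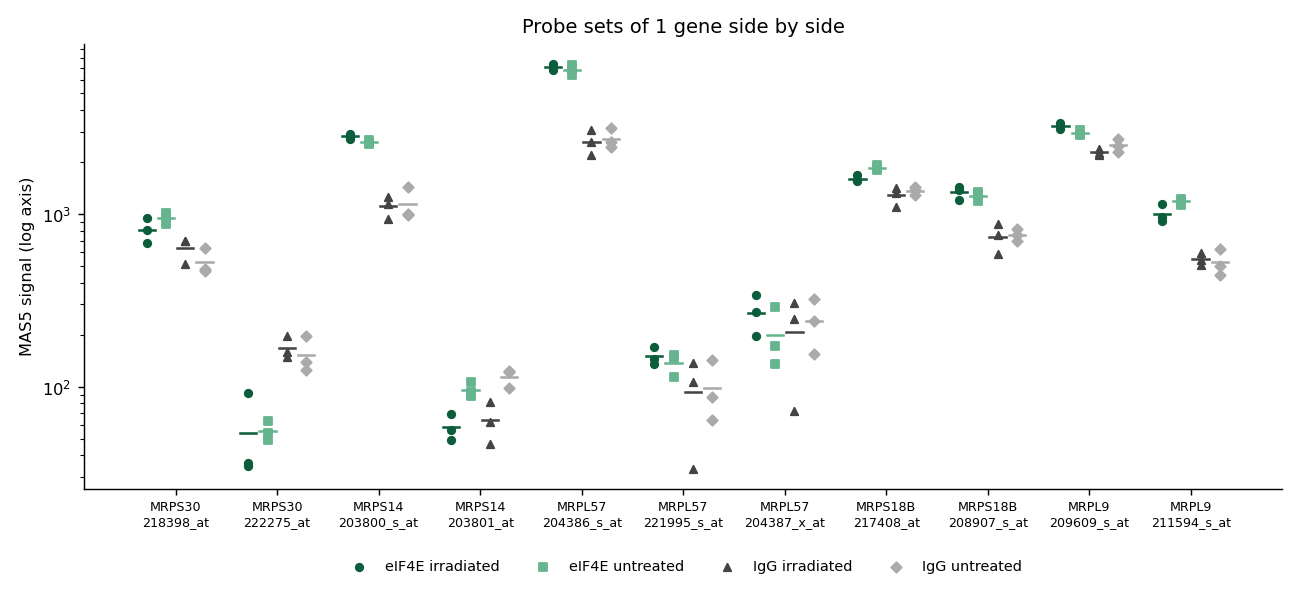
MAS5 signal (y axis, log scale) on the 12 arrays for each probe set above the filter of MRPS30, MRPS14, MRPL57, MRPS18B and MRPL9 (x axis); points are arrays, short lines are means of 3, and groups run from eIF4E irradiated to IgG untreated within each probe set. The bright and the dim MRPS30 probe sets lie in opposite directions (678 to 1014 against 465 to 701, and 34.6 to 91.4 against 125 to 197), and the dim MRPS14 and MRPL57 probe sets overlap between antibodies.

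The antibody difference was measured separately in irradiated and in untreated cells, and these 2 comparisons share no arrays. In irradiated cells, 26 of 29 large subunit genes were higher and 0 lower, and 16 of 19 small subunit genes were higher and 1 lower, where 27.2% of all genes tested were higher and 32.3% lower. In untreated cells, 25 large subunit genes were higher and 0 lower, and 17 small subunit genes were higher and 1 lower, where 27.2% of all genes tested were higher and 31.7% lower. Median log2 differences were 1.11 in irradiated and 1.16 in untreated cells for the large subunit, and 0.92 in irradiated and 1.17 in untreated cells for the small subunit. The untreated small subunit median was 1.00 without the second untreated IgG array.

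Member by member, both treatments gave closely similar differences. The sign was the same for 48 of 48 members, Pearson's r over the 48 genes was 0.95 and Spearman's rho 0.94, and over all 7178 genes r was 0.94 with the same sign for 6488. Genes are not independent replicates, so these are descriptions. In both treatments 40 members passed the threshold, and the share of all genes that did so was not counted. MRPL3, MRPL9 and MRPS10 passed in irradiated cells alone, MRPL19, MRPS30 and MRPS31 in untreated cells alone, and MRPL44 and MRPL49 in neither. For none of these was the difference between treatments past the threshold. The largest gap was that of MRPS30, with a log2 difference of 0.34 ± 0.17 in irradiated and 0.85 ± 0.17 in untreated cells.

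Irradiation itself gave no member past the threshold in either precipitate. In eIF4E precipitates, 0 of 48 members passed, as did 0.0% of all genes tested, and 0 had an unadjusted p under 0.05 in limma's fit, against 1.14% of all genes. For the probe set that stood for each gene, irradiated minus untreated log2 differences lay between -0.31 and 0.15, with a median of 0.02 and SEs of up to 0.25. The smallest p were those of MRPS18B, at -0.21 ± 0.13, MRPL19, at -0.31 ± 0.20, and MRPS30, at -0.24 ± 0.17, none past the threshold. MRPL19 had signals of 1082, 1160 and 1111 in irradiated and 1316, 1593 and 1281 in untreated eIF4E precipitates, which did not overlap. Of the 48 members, 5 had no overlap with irradiated arrays higher and 3 with irradiated arrays lower. The share of all genes without overlap was not counted for this comparison, so these counts are not a result about the members.

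In IgG precipitates, 0 of 48 members passed, as did 0.0% of all genes tested, and 2 had an unadjusted p under 0.05, a share no larger than the 6.62% of all genes. They were MRPS31, with signals of 516, 624 and 497 in irradiated and 343, 418 and 433 in untreated IgG precipitates (log2 difference 0.44 ± 0.15, adjusted p = 0.63 by limma), and MRPS15, with signals of 248, 533 and 310 in irradiated and 446, 543 and 493 in untreated IgG precipitates (-0.49 ± 0.21, adjusted p = 0.70 by limma). MRPL35 followed at 0.25 ± 0.13. These differences concern the background precipitate, and none passed.

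The irradiation effect in eIF4E minus that in IgG precipitates also passed for 0 of 48 members, as for 0.0% of all genes tested, and 0 had an unadjusted p under 0.05 in limma's fit, against 3.01% of all genes. MRPS30 had the smallest p, at -0.51 ± 0.25, then MRPS31 at -0.36 ± 0.21 and MRPS2, of bacterial type, at -0.39 ± 0.24. With SEs of up to 0.35, a small change was not detectable with 3 arrays a group.

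**Figure D4:**
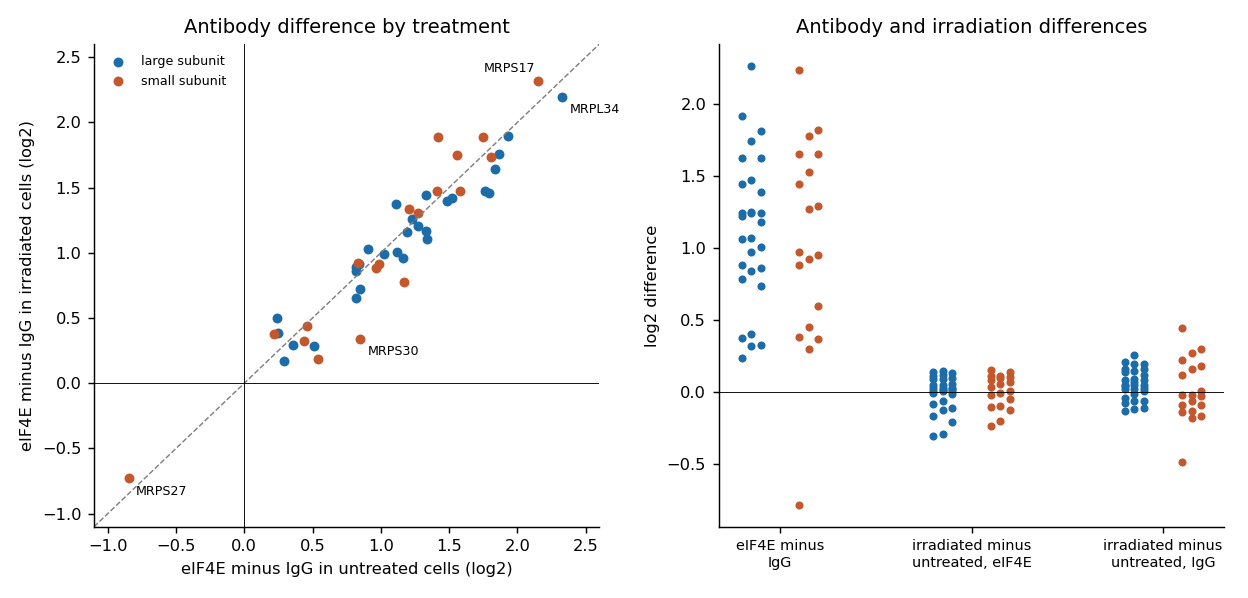
Left, log2 difference of eIF4E minus IgG in irradiated cells (y axis) against that in untreated cells (x axis) for the 48 tested members, with the line of equality dashed; right, log2 differences of the same members between antibodies (mean of both treatments) and between irradiated and untreated cells in eIF4E and in IgG precipitates. Points on the left follow the dashed line, with MRPS30 farthest from it (0.34 against 0.85), and on the right the irradiation differences lie between -0.49 and 0.44 while most antibody differences are larger.

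Other proteins that work with the mitochondrial ribosome did not move as 1 group, and their counts are to be read against the 32.5% of all genes that were higher and the 38.2% that were lower. Of ribosomal proteins named otherwise, GADD45GIP1, a large subunit protein at the tunnel exit, was higher in eIF4E precipitates by 1.14 ± 0.11 on the log2 scale, while the small subunit proteins DAP3 and PTCD3, at -0.09 ± 0.12 and -0.11 ± 0.12, did not pass. Among 14 assembly and ribosomal RNA modification factors the median was 0.41, with 8 called higher and 2 called lower. The highest were RBFA, which helps mature the small subunit, at 1.12 ± 0.17 and MTG1, a GTPase of large subunit assembly, at 1.05 ± 0.19. The lowest were MRM3, a ribosomal RNA methyltransferase, at -0.38 ± 0.14, and the helicase DHX30, at -0.28 ± 0.13, which did not pass.

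The 5 mitochondrial translation factors tested had a median of 0.11, with 2 called higher and 2 called lower. The elongation factors TSFM, at 0.73 ± 0.12, and TUFM, at 0.46 ± 0.11, were higher, and the initiation factor MTIF2, at -0.44 ± 0.12, and the elongation factor GUF1, at -0.38 ± 0.13, were lower. Among 14 genes of mitochondrial RNA synthesis and processing the median was 0.06, with 6 called higher and 3 called lower. SLIRP and LRPPRC, whose proteins form 1 complex on mitochondrial messengers, stood at opposite ends, at 1.08 ± 0.11 for SLIRP and -1.26 ± 0.15 for LRPPRC. The transcription elongation factor TEFM was higher, at 0.88 ± 0.12, and PRORP, the nuclease of mitochondrial RNase P, at -0.58 ± 0.32 did not pass.

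Nuclear-encoded subunits of the respiratory chain, whose partners the mitochondrial ribosome makes, gave a similar picture to its own proteins. Their median was 1.07, and 54 of 61 tested were called higher and 3 lower, against 32.5% and 38.2% of all genes tested. The highest were ATP5F1D of ATP synthase at 2.25 ± 0.13 and NDUFA3 of complex I at 2.16 ± 0.14, and the lowest were NDUFS1 of complex I at -0.95 ± 0.14 and ATP5F1A of ATP synthase at -0.67 ± 0.10.

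Cytosolic ribosomal proteins gave another picture. Their median log2 difference was -0.31, and 31 of 52 tested were called lower and 4 higher, where 38.2% of all genes tested were lower. RPL36 and RPL29 were the highest, at 1.14 ± 0.12 and 0.53 ± 0.14, and RPLP2 and RPL27A the lowest, at -1.80 ± 0.24 and -1.60 ± 0.18. Between the 2 families of ribosomal proteins, 95.8% of the tested mitochondrial members and 7.69% of the cytosolic ones were higher, against 32.5% of all genes tested.

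**Figure D5:**
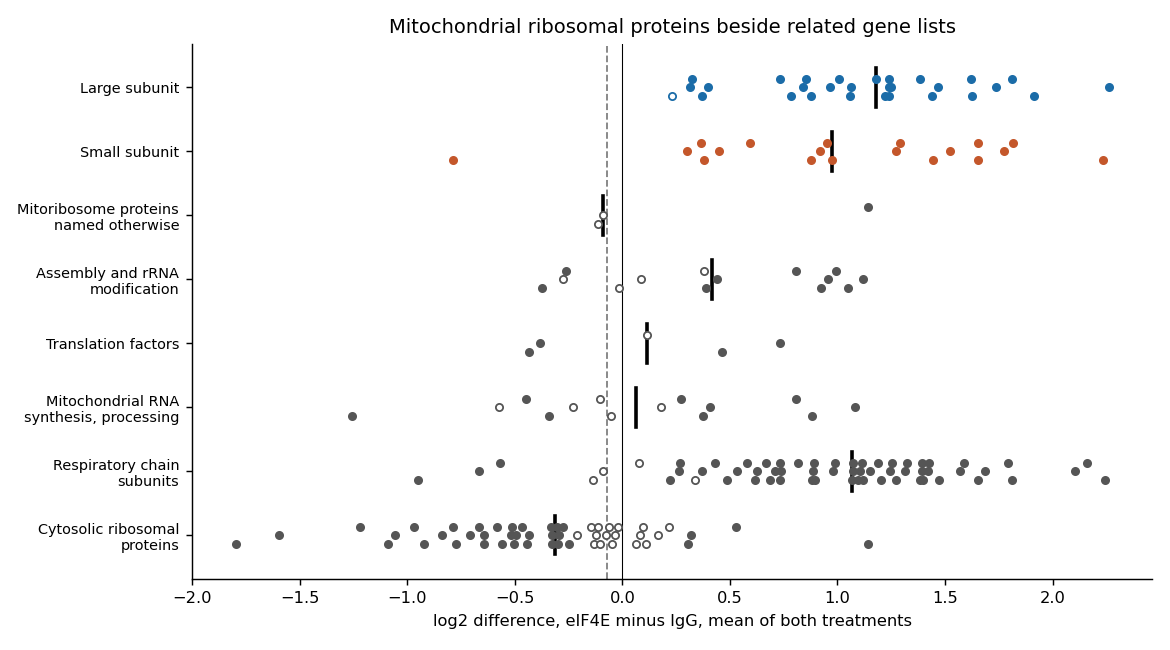
Log2 difference of eIF4E minus IgG precipitates, mean of both treatments (x axis), for the tested genes of 8 lists (rows); each point is a gene, filled where past the adjusted p threshold, black bars are list medians and the dashed line is the median of all genes tested, -0.07. The 2 mitochondrial ribosomal subunits (medians 1.18 and 0.97) and the respiratory chain subunits (1.07) lie to the right, and the cytosolic ribosomal proteins (-0.31) to the left.

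The annotated starts shown above set the 2 families of ribosomal proteins apart in another way. Of the 48 tested members, 42 had a promoter sequence in the RefSeq table, 250 bases before to 50 after the start. A start of C followed by 4 letters that are each C or T was found in 3 of these 42 members (7.14%), in 33 of 46 cytosolic ribosomal protein genes (71.7%) and in 345 of 6055 of all tested genes with a sequence (5.70%). The 3 members were MRPS33, MRPL44 and MRPS27, at log2 differences of 1.44, 0.23 and -0.79. MRPS27 is the 1 member lower in eIF4E precipitates, MRPL44 the 1 not past the threshold, and MRPS33 was above the family median.

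Over all tested genes the median was -0.05 with this start and -0.09 without it, and 31.0% with it and 32.6% without it were higher in eIF4E precipitates. Among cytosolic ribosomal protein genes the median was -0.21 with it and -0.33 without it, and RPL36, the highest of them, has it. Of 53 respiratory chain genes with a sequence, 7 (13.2%) have it. All 7 were higher in eIF4E precipitates, as were 89.1% of respiratory chain genes without it. The median of the 7 was 0.98, against 1.08 for respiratory chain genes without it. The annotated start is 1 base chosen by RefSeq, so a messenger that begins a few bases away would be counted differently. The part of this start in the antibody differences was not tested.

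Other letters in these promoters were counted on both strands of the 300 bases. CCGGAAG, the core bound by ETS factors, was in 38.1% of the 42 members and in 20.6% of the 6055 promoters of tested genes. GGGCGG, the GC box, was in 61.9% of members and 72.3% of all. CCAAT was in 23.8% and 37.9%, and TATAAA, the TATA box, in 2.38% and 5.32%. Members with CCGGAAG had a median log2 difference of 1.23 and those without it 0.99. For GGGCGG these medians were 1.21 and 0.95, for CCAAT 1.10 and 1.12, and for TATAAA, found in 1 member, 1.65 and 1.06. CCGGAAG was also in 37.0% of cytosolic ribosomal protein promoters, with medians of -0.30 with it and -0.28 without it. Among respiratory chain promoters it was in 32.1%, with medians of 1.07 and 1.08. The part of these letters in the antibody difference was not tested. The mean share of G and C was 60.1% ± 7.73 (SD) in members and 65.0% ± 9.72 in all.

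Members come from short genes, and short genes as a whole were higher in eIF4E precipitates. The median genomic span of the tested members was 8.61 kb, from 1.24 to 112 kb, against 31.4 kb for all genes tested. Spearman's rho between span and log2 difference was -0.31 over members and -0.47 over all genes, given as a description. With all genes cut into 4 equal bins by span, 30 members fell in the shortest, with a median of 1.24 against 0.46 for the other genes there. In the next bins, in order of span, the medians were 0.84 for 9 members against 0.07, 1.16 for 6 members against -0.26, and 0.95 for 3 members against -0.66 for the other genes. The members' median was above that of other genes in each bin, though the last bins hold few members, and MRPS27, with a span of 101 kb, was among the 3 in the longest. The part of gene span in the antibody difference was not tested.

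Among the genes of the family without a test, MRPL41, MRPL52 and MRPS18C lay below the filter. MRPL41 had signals of 4.56 to 12.8 in eIF4E and 1.63 to 55.3 in IgG precipitates, and MRPL52 had 77.6 to 142 in eIF4E and 5.56 to 70.1 in IgG precipitates.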

How the data were processed

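The authors deposited 1 MAS5 intensity per probe set and array, a signal on a linear scale, per the submitters' processing notes, which name no version. With 2% left out at each end, the mean signal was about 500.2 on each of 12 arrays. Probe sets were named from the platform annotation. The symbols of all 64 member probe sets are unchanged in RefSeq.

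Each gene was represented by its brightest probe set, and a set marked _x_at stood for a gene only if it was the only kind. Genes under the 40th percentile of mean log2 signal were left out, which kept 7178. limma 3.58.1 (R 4.3.3, lmFit and eBayes with trend) was fitted to log2(signal + 16) over 4 group means with Benjamini-Hochberg adjustment at 0.05. Changes of dim genes are understated on this scale. The error of a log2 difference is the SE. The number of arrays limits the precision.

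Members, lists, tests and motifs were chosen with earlier results of these data known. Named genes are, per subunit, the 6 highest and 6 lowest differences, 12 fixed members, the 3 smallest p in irradiation comparisons, members whose probe sets disagree by over 1 on the log2 scale, those below the filter, and up to 2 genes at each end of other lists. MRPS33 was added after its values were seen. MRPS36 was not analysed here.

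Same-numbered irradiated and untreated eIF4E arrays deviated together (correlations of 0.374, 0.208 and 0.181) and count as paired on these correlations alone, the labels naming no shared culture. The values printed come from the fit without a block, and the replicate block is an alternative. Each other pair of groups had a number under 0.1. For replicate 1 alone, correlations were 0.253 to 0.374 in every pair of groups except untreated eIF4E with irradiated IgG precipitates, at 0.0956. The control ratio bioB over bioC was 0.292 to 0.386 on replicate 1 of all 4 groups and 0.0313 to 0.0822 on the other arrays. Replicate 1 thus stood apart in this ratio in every group, and the reason was not tested. Figures were drawn with matplotlib 3.10.9.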

Additional observations from a re-analysis of the deposited data

Results flagged for a closer look

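MRPL52, a mitochondria-specific large subunit gene, lay below the signal filter and entered no test, yet its arrays separated by antibody. Signals of MRPL52 were 109, 99.8 and 142 in irradiated and 83.9, 108 and 77.6 in untreated eIF4E precipitates, against 57.1, 16.3 and 6.95 in irradiated and 70.1, 28.1 and 5.56 in untreated IgG precipitates. The mean difference of log2(signal + 16) was 1.54. Since 5 of 6 IgG signals lay under the filter of 57.4, this value depends on the pseudocount, and it was not tested.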

How the results depend on the processing

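Of 48 tested members, 38 kept the direction and the call of their mean eIF4E minus IgG difference in all 25 alternatives, and MRPL44 in the 24 in which it was tested (other pseudocounts, filters, scalings, weights and fits, the replicate block, probe set means, and omission of each array or of replicate 1 of every group). MRPL49, MRPS10, MRPL3 and MRPL19 lost the call in at least 1 setting besides a 1.5-fold minimum. MRPL9, MRPS18B, MRPS22 and MRPS31 lost it at that minimum alone. MRPS30 was reversed as a mean of its probe sets, at -0.38. This value rests on the dim probe set under the filter in eIF4E precipitates, so no conclusion about MRPS30 is drawn from it. The count of small subunit members called lower was 2 rather than 1 with probe set means (mean and irradiated comparisons) and with each probe set by itself (mean, irradiated and untreated comparisons). The addition was MRPS30, through that same dim probe set, so it does not count as a further lower member. The untreated small subunit median was 0.96 with probe set means, 0.90 with each probe set by itself, and 1.00 to 1.28 with 1 array left out. Higher calls in the mean comparison numbered 24 to 30 in the large and 14 to 23 in the small subunit, the ends being set by a 1.5-fold minimum and by counting probe sets. Irradiation comparisons gave 0 members under every alternative. With the replicate block, 28 large and 18 small subunit members were higher and 0 and 1 lower, and no count of member calls changed in the other comparisons. Over all genes the block gave 2415 higher and 2829 lower, against 2334 and 2744. In irradiation comparisons with the block, members at an unadjusted p under 0.05 in limma's fit numbered 0 in eIF4E and 2 in IgG precipitates, and 1 for the difference of both. Median centring put the median of all genes at 0.04 instead of -0.07 on the log2 scale. MAS5 signals near the filter limit what can be said of dim probe sets.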
